A study of Mus musculus with 9 samples.

Results

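Glycogen synthesis and breakdown were followed through 9 genes in the inguinal fat pad of adult mice, a white adipose depot under the skin of the groin. The genes were Gys1, Gys2, Gyg, Ugp2, Gbe1, Pygl, Ppp1r3b, Ppp1r3c and Ppp1r3d. Each was taken as the array row that the platform annotation names with that symbol only, by the highest mean over all 9 arrays where a gene has several such rows. Every one of the 9 genes had exactly 1 such row. All 9 rows passed the filter on low values, so all are among the 16639 genes tested. Rows were thus selected on their mean level over the 9 arrays, which does not use the groups. The 9 symbols were put together with the differences between these groups already known, so counts and medians over the set are descriptions of it and support nothing further.

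The cold group was control mice (Adiponectin-rtTA; TRE-Cre; Zfp423+/+) kept at 6 °C for the last 14 days. The knockout group was Adiponectin-rtTA; Tre-CRE; Zfp423loxP/loxP mice at room temperature, which lose Zfp423, a zinc finger transcription factor that holds adipocytes in the white state, once doxycycline is given. The control group had the control genotype at room temperature. All 3 groups carried both transgenes and ate doxycycline chow for 28 days after being raised to 8 weeks of age at room temperature, and 3 arrays were run per group. The deletion depends on an adiponectin-driven activator, so cells of the pad other than adipocytes keep the gene, and the whole pad was profiled. Whether each array stands for a different mouse is not stated in the labels, and the p-values measure the array to array spread, which may be technical.

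Glycogen is a branched glucose polymer, and most tissues store it in the cytosol. Glycogenin primes each granule, UDP-glucose pyrophosphorylase supplies the activated glucose, glycogen synthase lengthens the chains and branching enzyme adds the branch points. Glycogen phosphorylase releases glucose 1-phosphate from the chain ends. Targeting subunits bring protein phosphatase 1 to the granule, where it dephosphorylates and thereby turns on synthase and turns off phosphorylase. White fat holds little glycogen, and brown and beige fat are known to store more.

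The labelled tissue and groups were checked first. Of 9 adipocyte markers 8 had a row, and all 8 passed the filter. Their summed signal, as log2, lay between 21.11 and 21.13 in cold controls, between 20.89 and 21.14 in knockouts and between 21.03 and 21.16 in controls. Adipoq, the adiponectin gene, read 14.78, 14.76 and 14.71 in cold controls, 14.70, 14.76 and 14.72 in knockouts and 15.34, 14.92 and 15.29 in controls. Zfp423 read 7.56, 8.15 and 8.04 in knockouts and 8.74, 8.22 and 8.40 in controls, without overlap, and the difference did not pass (-0.53 ± 0.20 SE, limma adjusted p = 0.254). Ucp1, the uncoupling protein of thermogenic fat, was on average 19.02 in cold controls, 19.31 in knockouts and 12.41 in controls. In each group 1 array lay between the others for the largest share of genes, namely cold replicate 2 for 42.0% of genes, knockout replicate 3 for 62.0% and control replicate 3 for 52.8%. For each comparison, the count of the 9 genes past the threshold is given without these 3 arrays as well, which leaves 2 arrays a group. For many genes this keeps the 2 most distant arrays of a group, and 0 of all genes passed in any comparison there. Those counts past the threshold therefore say nothing of the 9 genes in particular.

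In the cold the whole set lay on 1 side of the controls. All 9 genes read higher on every cold array than on any control array at room temperature. Across all genes tested, 14.7% had cold arrays above the controls without overlap and 18.2% had them below. The median difference of the 9 genes was 1.86 log2 units, against -0.02 over all genes. Of the 9, 2 rose past the limma threshold (adjusted p under 0.05 over all genes), 0 fell and 7 did not pass, with 1.56% of all genes past it and 1.36% past it upwards. The 2 genes were Ppp1r3b and Pygl, and 8 of the 9 had an unadjusted p under 0.05, as did 20.4% of all genes. In an F test over the 3 groups the same 2 members passed (limma adjusted p = 0.0160 and 0.0135), as did 2.68% of all genes. Without the 3 arrays that lay between the others, limma called 0 of the 9 genes and 0 of all genes. There 5 of the 9 had an unadjusted p under 0.05, as did 781 of the 16639 genes. The main fit takes 1 spread per gene from all 3 groups, so the knockout arrays also enter the SE of the cold difference. In a fit of these 2 groups alone 6 of the 9 passed, and 8.10% of all genes passed there. The further genes were Gys1, Gys2, Gbe1 and Ppp1r3c.

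In knockout tissue the 9 genes lay on both sides of the controls. Of the 9 genes 0 passed between knockouts and controls with limma, 0.379% of all genes did (0.234% upwards and 0.144% downwards), and 3 of the 9 had an unadjusted p under 0.05, as did 16.3% of all genes. Without knockout replicate 1, 7 of the 9 had an unadjusted p under 0.05, as did 3238 of the 16639 genes. Leaving out any 1 other array gave 1 to 3 of the 9, the lowest without control replicate 1 (1933 of all genes). With the 3 arrays between the others left out, limma called 0 of the 9 and 0 of all genes. There 0 of the 9 had an unadjusted p under 0.05, as did 682 of the 16639 genes. Gys2 and Ppp1r3d read higher on every knockout array than on any control array, and Pygl read lower on every one, while the other 6 genes overlapped. Over all genes, 9.40% lay above and 7.99% below the controls without overlap. The median difference of the 9 was 0.27, against 0.02 over all genes. Both comparisons share the control arrays, and the direct test between cold controls and knockouts is therefore given for each gene below. There 2 of the 9 were higher in cold controls past the threshold, 0 were lower, and 2.42% of all genes passed, 1.24% with cold controls higher. Without regard to the threshold, 5 of the 9 read higher on every cold array than on any knockout array, as did 12.3% of all genes, and 20.2% read lower. The 2 past the threshold were again Pygl and Ppp1r3b. Without the 3 arrays between the others limma called 0 of the 9 and 0 of all genes. Of the 9, 3 had an unadjusted p under 0.05 there, as did 965 of the 16639 genes.

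**Figure D1:**
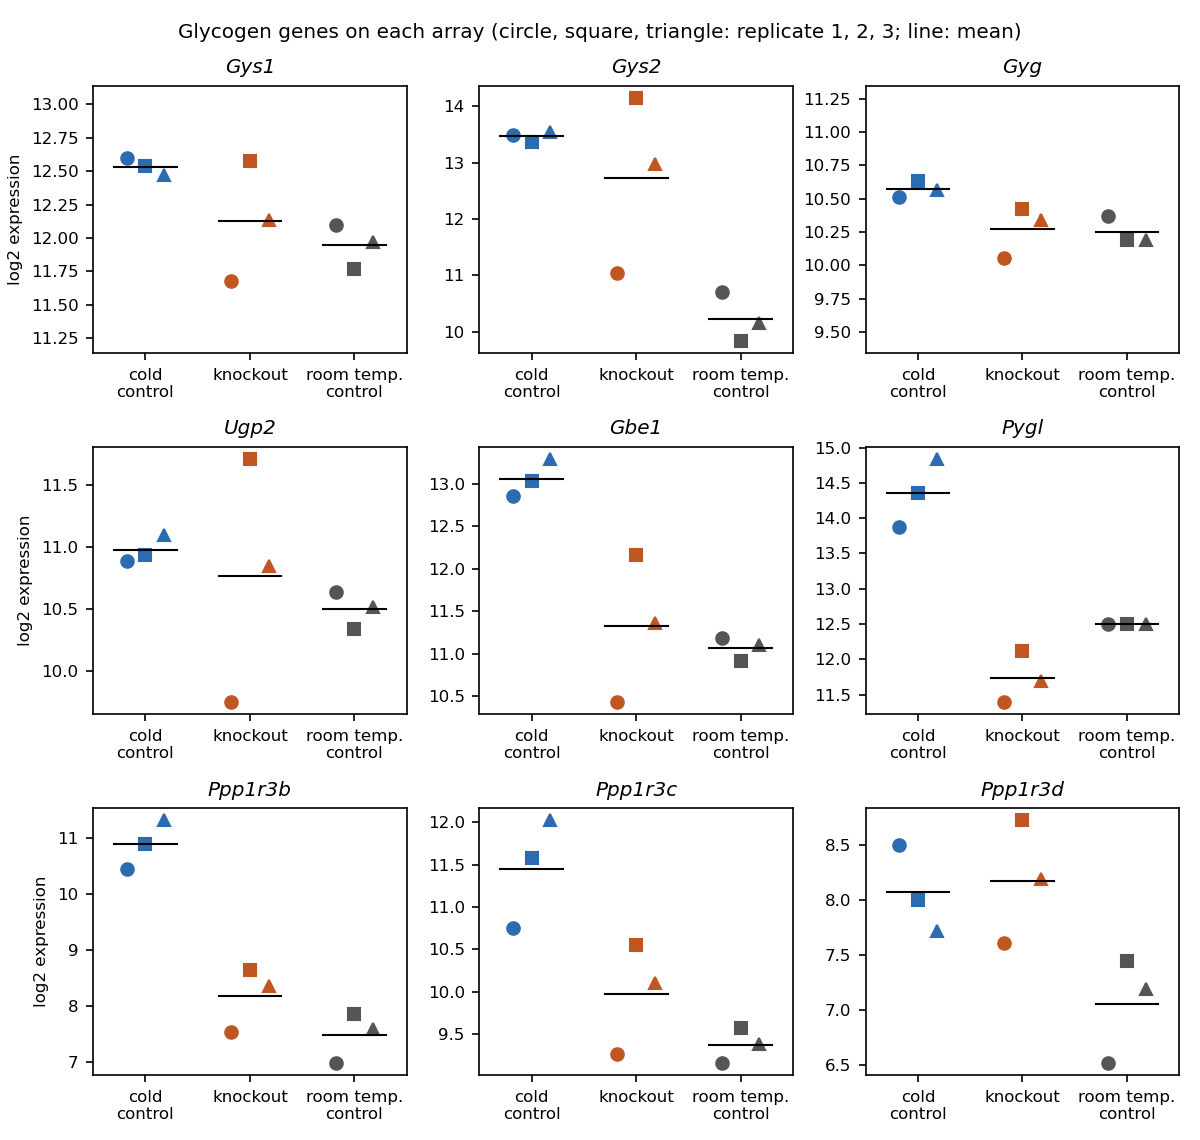
Log2 expression of the 9 glycogen genes (vertical axes, 1 panel per gene, each with its own range) on every array of cold controls, knockouts and room temperature controls. Symbols mark replicates 1, 2 and 3 and lines the group means; the cold arrays lie above all controls in each panel, and the knockout arrays lie below all controls for Pygl only.

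Promoter windows were read for the genes with the largest cold differences that have one, since all 3 read higher on every cold array. The windows run from 250 bases before to 50 bases after the RefSeq start on assembly GRCm38.p6, and 7 of the 9 genes have one (all but Gys2 and Ppp1r3b). Capitals mark matches on either strand to CACGTG (an E-box), TGACGTCA (the cAMP response element), its overlapping part TGACG, TCAAGGTCA (a site of estrogen related receptors), its overlapping core AAGGTCA, and TTGCGCAA (a C/EBP palindrome). The windows are Gbe1 at chr16:70313699-70313998 on the plus strand, Pygl at chr12:70227634-70227933 on the minus strand and Ppp1r3c at chr19:36736555-36736854 on the minus strand.
Gbe1: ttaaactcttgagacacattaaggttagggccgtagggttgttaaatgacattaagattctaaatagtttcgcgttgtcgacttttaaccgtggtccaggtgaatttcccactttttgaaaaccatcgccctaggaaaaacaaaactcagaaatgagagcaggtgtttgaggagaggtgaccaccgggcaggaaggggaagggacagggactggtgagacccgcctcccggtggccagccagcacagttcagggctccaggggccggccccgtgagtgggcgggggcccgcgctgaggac
Pygl: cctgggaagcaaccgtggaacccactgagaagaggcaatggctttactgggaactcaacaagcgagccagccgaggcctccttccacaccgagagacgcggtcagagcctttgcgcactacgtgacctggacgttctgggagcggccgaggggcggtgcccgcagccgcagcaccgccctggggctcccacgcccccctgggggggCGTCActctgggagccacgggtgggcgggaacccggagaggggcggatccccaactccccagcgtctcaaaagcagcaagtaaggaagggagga
Ppp1r3c: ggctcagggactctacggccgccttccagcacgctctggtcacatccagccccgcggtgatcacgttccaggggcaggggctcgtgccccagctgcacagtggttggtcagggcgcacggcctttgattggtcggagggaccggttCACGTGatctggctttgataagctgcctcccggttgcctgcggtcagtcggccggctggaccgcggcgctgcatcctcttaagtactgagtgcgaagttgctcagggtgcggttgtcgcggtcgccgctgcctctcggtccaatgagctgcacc

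The Ppp1r3c window held 1 E-box, 104 bases before the start, and the Pygl window 1 match to TGACG, 44 bases before it on the opposite strand. The Gbe1 window held none of the 6 motifs. Of the other windows, those of Gyg and Ppp1r3d also held CACGTG, each overlapping a TGACG, and Ppp1r3d a second TGACG. Of 32851 windows of the same length over all genes, 7.15% held CACGTG and 20.8% TGACG. None of the windows of the 7 genes held the full TGACGTCA, either estrogen related receptor motif or the C/EBP palindrome, which 1.79%, 0.423%, 4.72% and 0.183% of all windows held. A match describes letters only, and no match says nothing of a factor outside these windows.

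Chain synthesis depends on 2 synthase genes, and their differences were of unequal size. Gys2 encodes the isoform known from liver and fat. It read 13.49, 13.37 and 13.54 in cold controls, 11.04, 14.14 and 12.98 in knockouts and 10.70, 9.84 and 10.16 in controls. The cold arrays lay close together, the knockout arrays spread over 3.10 log2 units, and neither group overlapped the controls. Gys2 differed by 3.23 ± 0.70 (SE) log2 units between cold controls and controls, a 9.40-fold difference of the group means that missed the threshold (limma adjusted p = 0.0770). Between knockouts and controls it differed by 2.49 ± 0.70 (adjusted p = 0.154), and without knockout replicate 1 it passed at 3.33 (limma adjusted p = 0.0154). With any 1 other array left out it did not pass (limma adjusted p between 0.168 and 0.389). Without knockout replicate 1 or 2 the cold difference passed as well (adjusted p = 0.00823 and 0.0229). Cold controls and knockouts differed by 0.74, with a 95% interval from -0.90 to 2.39 (limma adjusted p = 0.522), so these arrays do not order those 2 groups for Gys2.

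Gys1 encodes the synthase known from muscle and most other tissues. It read 12.60, 12.54 and 12.47 in cold controls, 11.68, 12.57 and 12.13 in knockouts and 12.10, 11.76 and 11.97 in controls. Cold arrays were all above the controls by a small margin, and the knockout arrays lay on both sides of them. Its differences from controls were 0.59 ± 0.21 (SE) in the cold and 0.18 ± 0.21 in knockouts (limma adjusted p = 0.190 and 0.703). Between cold controls and knockouts the difference was 0.41 ± 0.21 (limma adjusted p = 0.252). On every cold and knockout array the change of Gys2 from the control mean exceeded that of Gys1, in the cold by 3.13 to 3.31 for Gys2 against 0.52 to 0.65 for Gys1.

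The genes that start a granule and feed it had the smallest cold differences of the 9. Gyg, which encodes glycogenin, the self-glucosylating primer, read 10.52, 10.63 and 10.56 in cold controls, 10.06, 10.43 and 10.34 in knockouts and 10.37, 10.19 and 10.19 in controls. Cold arrays were just above both other groups, and knockouts overlapped the controls. The differences from controls were 0.32 ± 0.10 in the cold and 0.02 ± 0.10 in knockouts (SE, limma adjusted p = 0.162 and 0.932). Cold controls were higher than knockouts by 0.30 ± 0.10 (limma adjusted p = 0.130). Ugp2, the UDP-glucose pyrophosphorylase, read 10.89, 10.93 and 11.09 in cold controls, 9.75, 11.70 and 10.84 in knockouts and 10.64, 10.34 and 10.52 in controls. Knockout replicate 1 was the lowest and knockout replicate 2 the highest of all 9 arrays for this gene. Neither difference passed, at 0.47 ± 0.43 in the cold and 0.27 ± 0.43 in knockouts (SE, limma adjusted p = 0.554 and 0.792). The interval of the cold difference ran from -0.53 to 1.48. Its SE rests on a spread shared by the 3 groups, whose SDs were 0.11 in cold controls, 0.98 in knockouts and 0.15 in controls. In the fit of cold controls and controls alone the limma adjusted p was 0.0537. Between cold controls and knockouts Ugp2 differed by 0.20 ± 0.43 (limma adjusted p = 0.791).

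Gbe1, the branching enzyme, had a larger cold difference, and its promoter window held none of the motifs searched. It read 12.85, 13.03 and 13.29 in cold controls, 10.43, 12.16 and 11.36 in knockouts and 11.19, 10.92 and 11.11 in controls. The cold arrays were above every other array, and the knockouts spread around the controls. The difference between cold controls and controls was 1.99 ± 0.39 (SE, 3.97-fold, limma adjusted p = 0.0617), and it passed without knockout replicate 1 or 2 (adjusted p = 0.00994 and 0.0137). With any 1 other array left out it did not pass (limma adjusted p between 0.106 and 0.215). Cold controls were higher than knockouts by 1.74 ± 0.39 (limma adjusted p = 0.0629, and 0.0138 without knockout replicate 2). Knockouts and controls differed by 0.25 ± 0.39 (limma adjusted p = 0.788).

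Breakdown was represented by Pygl, the glycogen phosphorylase known from liver, which showed opposite signs in the 2 conditions. Pygl read 13.88, 14.36 and 14.84 in cold controls, 11.40, 12.12 and 11.70 in knockouts and 12.50, 12.50 and 12.50 in controls. All cold arrays were above the controls and all knockout arrays below them. The 3 control arrays held an identical deposited value, as did 5.77% of the rows of the table on these arrays, so the spread of Pygl in controls is not known from them. Pygl rose by 1.86 ± 0.26 (SE) in the cold, 3.64-fold (limma adjusted p = 0.0252). That call was lost without any 1 of 6 arrays, namely control replicates 1, 2 and 3, knockout replicate 3 and cold replicates 2 and 3 (limma adjusted p = 0.0731, 0.0677, 0.128, 0.0724, 0.131 and 0.0584), and with the replicate number as a block (0.0682), at differences of 1.62 to 1.86. In knockouts it differed from controls by -0.76 ± 0.26 and did not pass (limma adjusted p = 0.217). Cold controls were higher than knockouts by 2.62 ± 0.26, 6.14-fold (limma adjusted p = 0.00934), and this was lost without knockout replicate 3 or cold replicate 2 (adjusted p = 0.0666 and 0.0616).

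Of the 3 targeting subunits of protein phosphatase 1, Ppp1r3b had the largest cold difference of the 9 genes. Ppp1r3b is the subunit known from liver as GL. It read 10.44, 10.90 and 11.32 in cold controls, 7.53, 8.65 and 8.36 in knockouts and 6.98, 7.86 and 7.59 in controls. The cold arrays lay far above all others, and the knockouts overlapped the controls. It rose by 3.41 ± 0.37 (SE) log2 units in the cold, 10.6-fold (limma adjusted p = 0.0111), and lost the call without control replicate 3 or cold replicate 2 (adjusted p = 0.0738 and 0.0741). The difference between knockouts and controls was 0.70 ± 0.37 (limma adjusted p = 0.395). Cold controls exceeded knockouts by 2.71 ± 0.37, 6.52-fold (limma adjusted p = 0.0198). This second call was lost without control replicate 3, knockout replicate 3 or any 1 cold replicate, with limma adjusted p between 0.0501 and 0.110.

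Ppp1r3c, the subunit also called PTG, read 10.76, 11.57 and 12.02 in cold controls, 9.26, 10.55 and 10.11 in knockouts and 9.16, 9.57 and 9.38 in controls. Every cold array was above every knockout and control array. The difference in the cold was 2.08 ± 0.41 (SE, 4.22-fold, limma adjusted p = 0.0609), and it passed without knockout replicate 1 or 2 (adjusted p = 0.0268 and 0.0331). With any 1 other array left out it did not pass (limma adjusted p between 0.0762 and 0.222). Knockouts differed from controls by 0.60 ± 0.41 and cold controls from knockouts by 1.48 ± 0.41 (limma adjusted p = 0.508 and 0.0846), and the second passed without knockout replicate 2 (0.0389).

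The third subunit gene, Ppp1r3d, encodes a targeting subunit also called R6. It read 8.50, 8.00 and 7.72 in cold controls, 7.61, 8.73 and 8.19 in knockouts and 6.52, 7.44 and 7.19 in controls. Both the cold and the knockout arrays were above all controls, and they overlapped each other. The differences from controls were 1.02 ± 0.36 in the cold and 1.12 ± 0.36 in knockouts (SE, limma adjusted p = 0.187 and 0.194). Between cold controls and knockouts the difference was -0.10, with an interval from -0.95 to 0.74 (limma adjusted p = 0.878).

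**Figure D2:**
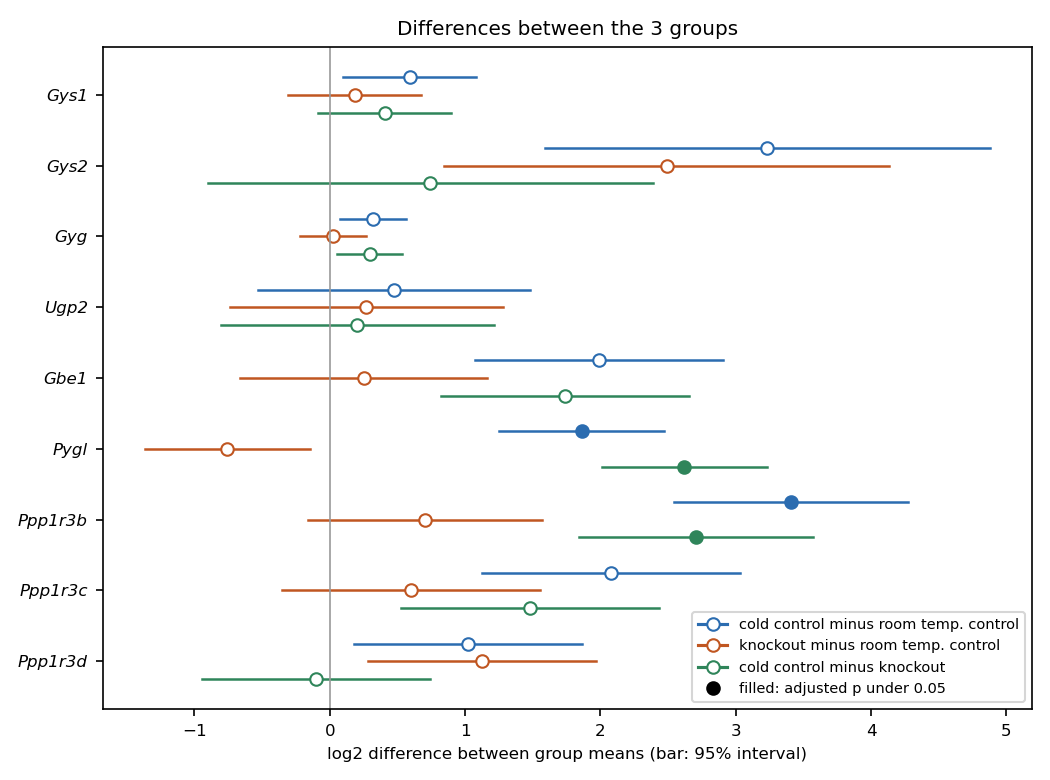
Log2 differences between group means for the 9 glycogen genes (horizontal axis) with 95% intervals from the limma fit, for cold control minus control, knockout minus control and cold control minus knockout. Filled points passed an adjusted p of 0.05: Pygl and Ppp1r3b in both comparisons of cold controls, and none between knockouts and controls.

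The knockout arrays varied together over the whole set. For all 9 genes knockout replicate 2 was the highest and knockout replicate 1 the lowest of the 3, which these arrays were for 40.9% and 40.5% of all genes. The median change of the 9 genes from the control mean was 1.39, 1.86 and 2.22 in cold replicates 1, 2 and 3, against -0.20, 1.17 and 0.35 in knockout replicates 1, 2 and 3. Knockout replicate 2 was above all controls for 8 of the 9 genes, replicate 3 for 7 and replicate 1 for 2, against 29.2%, 28.1% and 33.8% of all genes. Knockout replicate 1 was below all controls for Gys1, Gyg, Ugp2, Gbe1 and Pygl. The share of all genes below all controls on this array was not computed. Among the cold arrays replicate 3 was the highest for 6 of the 9 genes (30.8% of all genes) and replicate 1 the lowest for 6 (35.1% of all genes).

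Marker lists of cell types also differed among these arrays. The mean change of the 7 thermogenic adipocyte markers from the control mean was 4.48, 4.24 and 4.03 in cold replicates 1, 2 and 3, against 2.98, 5.85 and 4.92 in knockout replicates 1, 2 and 3. In the cold 5 of the 7 rose past the threshold, and in the knockouts 4 did. The 8 adipocyte markers stood at 0.16, 0.12 and 0.00 in the 3 cold arrays and at -0.64, -0.02 and -0.24 in the 3 knockout arrays. The order of the knockout arrays in both lists, replicate 1 lowest and replicate 2 highest, is that of the glycogen genes. It was also that of the endothelial list (-0.61, 0.14 and -0.16) and the skeletal muscle list (-1.71, 0.24 and -0.45). For the 2 tested hepatocyte markers the order depended on the measure. By mean change they stood at -1.35, -0.91 and -1.10, and by log2 of their summed signal at 17.28, 16.47 and 17.02. T cell markers ran the other way, at 1.53, -0.24 and 0.90 in the knockouts, as did the 5 tested neutrophil markers at 1.87, -0.31 and 1.33 and the 7 macrophage markers at 0.41, -1.11 and -0.17. So did the 3 tested B cell markers (0.55, -1.14 and -0.12) and the 3 tested preadipocyte markers (-0.15, -0.50 and -0.30).

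On the 3 cold arrays the changes were -1.14, -1.05 and -0.99 for macrophage markers and -1.01, -1.05 and -1.10 for T cell markers. As log2 of their summed signal, the macrophage markers ranged from 14.9 to 15.0 in cold controls, from 15.2 to 17.7 in knockouts and from 15.4 to 17.1 in controls, and the T cell markers from 10.75 to 10.77, from 11.61 to 13.55 and from 11.58 to 12.29 in the same groups. The neutrophil markers ranged from 7.90 to 8.07, from 7.95 to 10.9 and from 7.93 to 8.59, and the neutrophil gene Mpo was below the filter on low values. The part of any of these lists in the glycogen differences was not tested, and in whole tissue fewer cells of a type and less RNA per cell cannot be told apart.

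**Figure D3:**
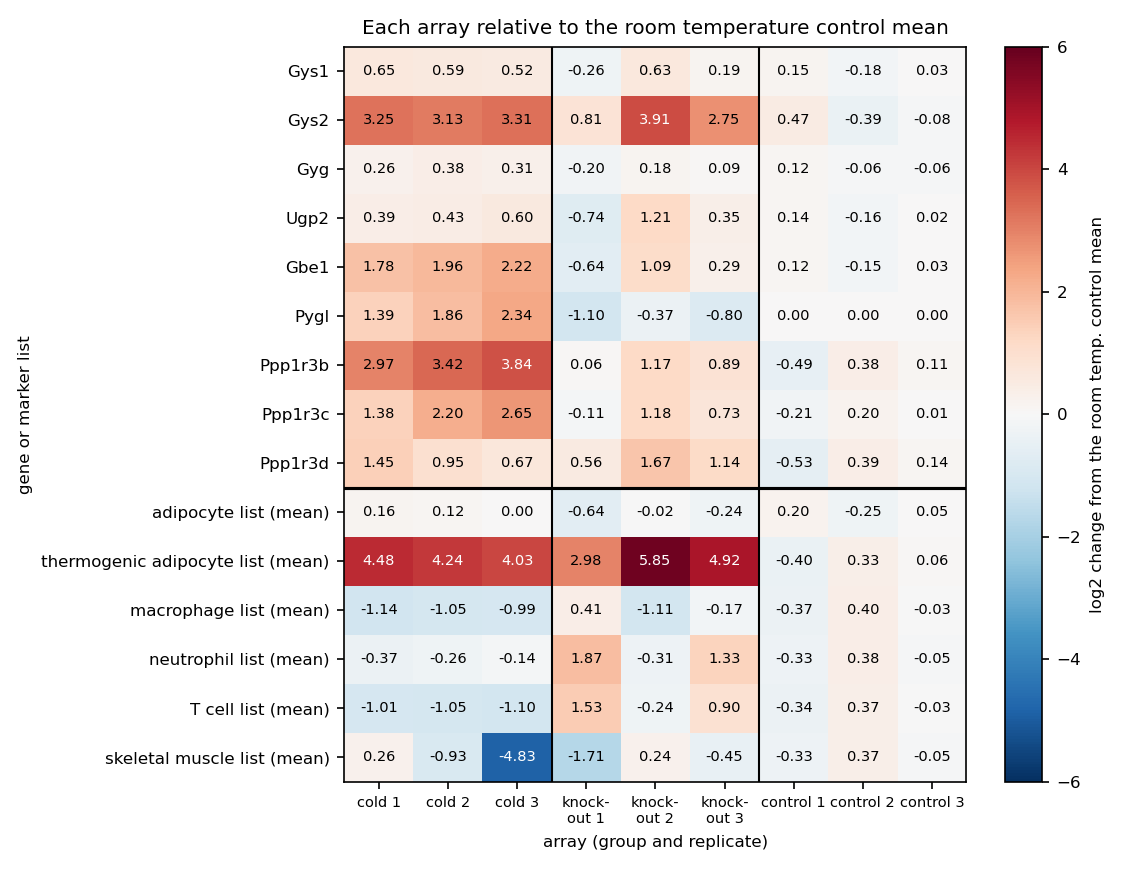
Log2 change from the mean of the 3 room temperature controls on each array (columns, by group and replicate) for the 9 glycogen genes and, below the line, for the means of 6 marker lists; colour and printed number give the same value. Knockout replicate 1 has the lowest and knockout replicate 2 the highest value of the 3 knockout arrays in each glycogen gene and in the adipocyte and thermogenic lists.

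Within the set, likeness of pattern over the 9 arrays was highest among Gbe1, Ppp1r3b and Ppp1r3c. Pearson's r was 0.97 between Ppp1r3b and Ppp1r3c, 0.95 between Gbe1 and Ppp1r3c and 0.94 between Gbe1 and Ppp1r3b, and also between Gyg and Gbe1. The lowest value, 0.12, was between Pygl and Ppp1r3d. These are descriptions over 9 arrays that share the group means and the normalization. Among all tested genes with a full gene name, those most like Pygl over the 9 arrays were Adcy10, a soluble adenylyl cyclase, Hephl1, Slc2a5, a fructose transporter, Syde2 and Acly, the ATP citrate lyase, with r from 0.992 to 0.997. Like Pygl, each of the 5 had a positive difference in the cold and a negative one in knockouts, as with Acly at 2.91 and -1.16 (limma adjusted p = 0.0359 and 0.283). Picking them by correlation with Pygl over the same arrays makes these signs follow, so they add nothing to the likeness. Those most like Ppp1r3b were Psph, a phosphatase of serine synthesis, Ttc25, Zfp946, the protease gene Furin and Coasy, the coenzyme A synthase, with r from 0.973 to 0.990, and Ppp1r3c ranked 10 on that scale.

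The rest of the pathway was read from a list by role. Of its genes, 32 were tested, and Ppp1r3g was below the filter. With limma 0 of the 32 passed between cold controls and controls and 0 between knockouts and controls, with 8 and 9 at an unadjusted p under 0.05 (20.4% and 16.3% of all genes). Between cold controls and knockouts 2 were higher and 0 lower past the threshold, against 1.24% and 1.17% of all genes. The median differences of the 32 genes were 0.00, -0.05 and 0.09 in these 3 comparisons.

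The 2 genes that passed were Phka2 and Pgm3. Phka2 encodes the liver-type regulatory subunit of phosphorylase kinase, which activates phosphorylase. It read 11.49, 11.21 and 11.04 in cold controls, 10.44, 10.38 and 10.47 in knockouts and 11.29, 11.02 and 11.02 in controls. The knockout arrays lay below all others, and cold controls exceeded them by 0.82 ± 0.12 (SE, limma adjusted p = 0.0270), a call lost without control replicate 3, knockout replicates 1 or 3, or cold replicates 1 or 2 (adjusted p between 0.0591 and 0.126) and with the replicate number as a block (0.0623). Pgm3, a mutase of the hexosamine pathway listed with the phosphoglucomutases, exceeded the knockouts by 1.09 ± 0.17 in the cold (limma adjusted p = 0.0314). It read 8.50, 8.56 and 8.55 in cold controls, 7.11, 7.89 and 7.34 in knockouts and 7.83, 7.80 and 7.79 in controls. This call was lost without control replicate 3, knockout replicates 1 or 3, or any 1 cold replicate (adjusted p between 0.0508 and 0.151), with no filter on low rows (0.0550), with replicate numbers as a block (0.0929) and in the fit of the 2 groups alone (0.0660).

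The other 3 of the 5 pathway genes with the smallest F test p, Pygb, Ugdh and Hk2, did not pass in any comparison of a pair of groups, while Pygb and Ugdh passed the F test itself (limma adjusted p = 0.0437 and 0.0485) and Hk2 did not (0.0671). Pygb, the brain-type phosphorylase, read 12.14, 11.90 and 11.90 in cold controls, 11.46, 11.01 and 11.20 in knockouts and 12.46, 11.96 and 12.20 in controls. Its knockout arrays were below every other array, with a difference from controls of -0.99 ± 0.16 (SE, limma adjusted p = 0.0575). Those of Pygl, Phka2, Phkb and Ugdh were below every other array as well. The share of all genes with this order was not computed. Ugdh, which turns UDP-glucose into UDP-glucuronate, differed from controls by -0.70 ± 0.11 in knockouts and by -0.24 ± 0.11 in the cold (limma adjusted p = 0.0575 and 0.278). Hk2, the hexokinase that traps glucose in insulin-sensitive tissue, read 13.04, 13.06 and 12.97 in cold controls, 10.40, 12.69 and 11.75 in knockouts and 10.50, 10.26 and 10.33 in controls. Its cold difference was 2.66 ± 0.50 (limma adjusted p = 0.0551), and its knockout arrays were ordered like those of the 9 glycogen genes, with 1.25 ± 0.50 from controls (limma adjusted p = 0.279).

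**Figure D4:**
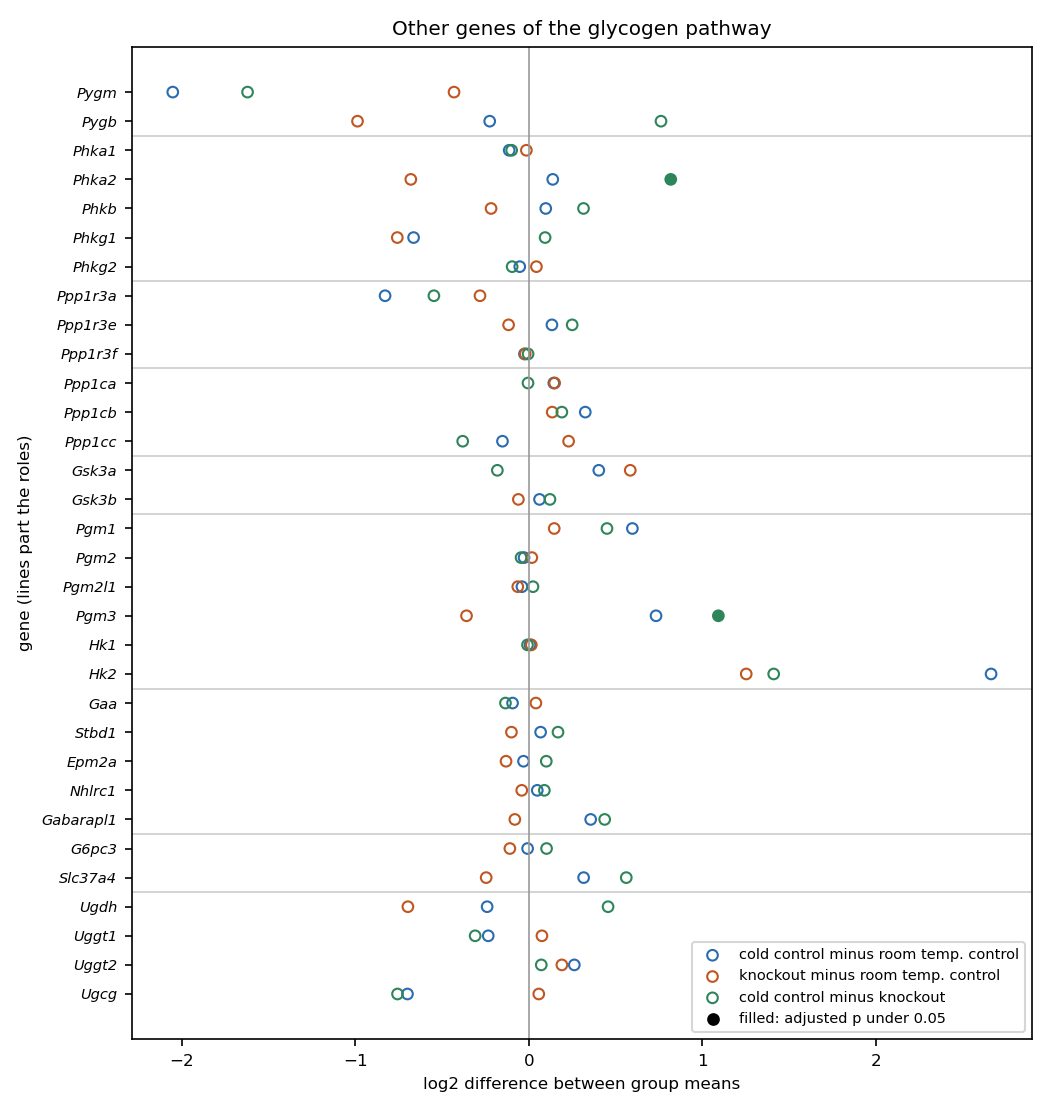
Log2 differences between group means (horizontal axis) for the 32 other tested genes of the pathway, ordered by role, in the 3 comparisons. Filled points passed an adjusted p of 0.05, which Phka2 and Pgm3 did between cold controls and knockouts.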

How the data were processed

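Total RNA was hybridised to Affymetrix Mouse Transcriptome Array 1.0, 1 biotin-labelled array per sample, per the labels. The authors deposited log2 values for 72688 rows on 9 arrays, made with Affymetrix Expression Console per the submitters' processing notes; for its version, method and genome build the sources used here give nothing. The log2 scale was read from the values (1.84 to 19.93). No depth or detection call comes with them, and the number of arrays limits the precision.

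Of 32750 rows with a symbol in the annotation used here, 30604 name 1 gene, and 827 symbols were updated through RefSeq gene IDs. Rows with a mean at or above the table's median row mean (5.31) were kept, the brightest per gene, leaving 16639 genes. Group means were estimated with limma 3.58.1 under R 4.3.3 (lmFit, eBayes, 9 arrays, 6 residual degrees of freedom), two-sided, with Benjamini-Hochberg adjustment over all genes and a threshold of 0.05. The fit was tested on simulated data. The members, lists, motifs and alternatives were chosen with earlier results of these data known. Named are the 9 members, pathway genes past the threshold, the 3 others of smallest F test p, Zfp423, Ucp1 and Adipoq, and the 5 genes most correlated with each of the 2 members of smallest F test p. Same-numbered arrays did not deviate together (correlations of deviations from -0.46 to 0.09), so the numbers were not taken to pair them.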

Additional observations from a re-analysis of the deposited data

How the results depend on the processing

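No difference of the 9 genes that passed changed sign under any alternative run. The counts of members past the threshold were 0 for knockouts against controls, 2 for cold controls against controls, 2 for cold controls against knockouts and 2 in the F test. With array weights they were 9, 9, 6 and 9, but limma's weight estimation stopped before convergence and that fit called 70.6%, 53.8% and 59.5% of all genes in the 3 comparisons. Without the array between the others in each group they were 0 for cold controls against controls, against knockouts and in the F test. In the 3 comparisons of pairs of groups 0 of all genes passed there. With the replicate number as a block (replicate block) the count for cold controls against controls was 1, and the other counts of members kept their values. The groups compared alone gave 6 for cold controls against controls, with 8.10% of all genes called, and a threshold of 0.1 gave 5 and 4 for cold controls against controls and against knockouts, with 4.32% and 12.2% of all genes. Leaving out 1 array at a time gave 0 to 1 for knockouts against controls, 0 to 5 for each comparison of cold controls and 0 to 5 in the F test. Without knockout replicate 2 the count was 5 for cold controls against controls and against knockouts, with 5.91% and 16.2% of all genes called, and without knockout replicate 1 it was 5 against controls, with 4.94%. It was 0 without cold replicate 2 in both, without control replicate 3 against controls and without knockout replicate 3 against knockouts. Leaving out a knockout array cannot change a difference between cold controls and controls. It changes only the SE and adjusted p, because the 3 groups share 1 estimate of the spread. Beyond that, the cause of these shifts was not tested.

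The same alternatives were run for the F test and the other pathway genes after the data were seen. For the 32 other genes, with 0, 0 and 2 past the threshold, array weights gave 24, 16 and 19, and leaving out 1 array gave 0 to 4, 0 to 3 and 0 to 11. The filter at the 60th percentile, quantile normalization and the 2 groups alone gave 1, 2 and 6 for cold controls against controls. No filter and the replicate block gave 1 and 1 for cold controls against knockouts, and without the array between the others it was 0. Of the members' differences, signs turned only for some that had not passed. Without 1 array at a time, knockouts minus controls ran from -0.040 to 0.41 for Gys1, from -0.052 to 0.13 for Gyg, from -0.20 to 0.78 for Ugp2 and from -0.17 to 0.69 for Gbe1, each lowest without knockout replicate 2 and highest without knockout replicate 1. Gyg also turned with quantile normalization (-0.025), without the array between the others (-0.040), without control replicate 2 or 3 (-0.0078 and -0.0057) and without knockout replicate 3 (-0.0099). Cold controls minus knockouts ran from -0.10 to 1.45 for Gys2, from -0.30 to 0.67 for Ugp2, both lowest without knockout replicate 1, and from -0.39 to 0.17 for Ppp1r3d, which was 0.17 without knockout replicate 2 and 0.07 without cold replicate 3.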

Other observations

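Pygm and Ppp1r3a, muscle forms of the glycogen genes, varied widely among the cold arrays. They were singled out after their values were seen. Pygm, the muscle phosphorylase, read 12.43, 11.07 and 7.01 in cold controls, 10.47, 12.93 and 11.96 in knockouts and 11.98, 12.45 and 12.23 in controls. Ppp1r3a, the targeting subunit of muscle, read 7.46, 6.49 and 4.76 in cold controls, 5.77, 7.69 and 6.89 in knockouts and 7.39, 6.89 and 6.92 in controls. The mean change of the 9 skeletal muscle markers from the control mean was 0.26, -0.93 and -4.83 in cold replicates 1, 2 and 3 and -1.71, 0.24 and -0.45 in knockout replicates 1, 2 and 3. Cold replicate 3 thus had the lowest muscle markers, Pygm and Ppp1r3a of all 9 arrays, and it had the highest Pygl, Gbe1, Ppp1r3b and Ppp1r3c. Of the 9 glycogen genes, Gys1 and Ppp1r3d were lowest of the cold arrays on replicate 3. So were the phosphorylase kinase genes Phka1 (8.54, 8.36 and 8.15 in cold replicates 1, 2 and 3) and Phkg1 (6.78, 6.54 and 6.04). The liver-type Phka2 was lowest there too (11.49, 11.21 and 11.04). Of the other phosphorylase kinase genes, Phkb was highest there (11.05, 11.06 and 11.18) and Phkg2 was not lowest there (8.62, 8.70 and 8.62). The part of muscle tissue in these values was not tested. Neither Pygm nor Ppp1r3a passed in the cold with limma (-2.05, adjusted p = 0.405, and -0.83, adjusted p = 0.541). The 5 mammary epithelial markers were all below the filter on low values.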
